A study of Mus musculus with 8 samples.

Results

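Mouse skeletal myogenic cells of different origin were compared with their culture state held constant, to find the expression differences between teratoma-derived and satellite cells that were present in freshly isolated cells and were still present after expansion. All 8 libraries of the series entered the comparison, namely 4 teratoma-derived libraries (TF1, TF2, TE1 and TE2) and 4 satellite libraries (SF1, SF2, SE1 and SE2), with state, fresh or expanded, as a covariate. TF cells were EGFP-positive myogenic progenitors from teratomas that E14-EGFP embryonic stem cells had formed in irradiated and cardiotoxin-injured tibialis anterior muscles of NSG-mdx4Cv mice, which lack a working immune system and dystrophin. They were sorted as CD31-negative, CD45-negative, α7-integrin-positive and VCAM-1-positive, and TE cells were such progenitors after culture in expansion medium to passage 8. SF cells were satellite cells freshly isolated from adult muscle, and SE cells were satellite cells expanded to passage 8. Beyond adult, the age of the mice that gave the satellite cells, and their sex and strain, are not given in the sources used here. All teratoma-derived libraries trace back to 1 embryonic stem cell line, so the origin of the cells and the genome they carry cannot be told apart. Neither the labels nor the study's methods say that TE1 was grown from the cells of TF1, and the p-values measure the spread between these libraries only.

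Satellite cells are the stem cells of adult muscle and lie beneath the basal lamina of the fibers. They keep patterns of transcription factors that reflect the body region and the embryonic source of their muscle. Hox genes, which encode homeodomain proteins laid out in chromosomal clusters, mark position along the trunk and limbs, while factors such as Pitx1, Isl1, Tcf21 and Nkx2-5 mark hindlimb, head, heart or connective tissue fields. Imprinted genes, which are read from 1 parental copy, are another class whose state can be passed on through cell division.

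Of 17582 genes tested, 472 differed by origin at an adjusted p under 0.05 and a difference of over 25% in edgeR's quasi-likelihood test with Benjamini-Hochberg adjustment. Expression was higher in teratoma-derived cells for 245 of them (1.39% of the genes tested) and lower for 227 (1.29%). A gene was called kept when it passed this test, differed by more than 25% in the same direction in fresh and in expanded cells, and had an interaction of origin and state that did not pass. Under this rule 221 genes were kept higher (1.26% of the genes tested) and 196 were kept lower (1.11%), together 417 genes or 88.3% of those called. The additive fit leaves genes with equal differences in both states the smallest spread and so favors them, and this share is therefore no measure of persistence. With median-ratio size factors in place of the TMM scaling, the split was 173 kept higher and 232 kept lower.

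The rule selects genes that differ in both states, so the sizes given here describe the kept genes and do not test persistence. The median log2 difference of genes kept higher was 1.62 in fresh and 1.31 in expanded cells, and that of genes kept lower was -2.32 and -2.06. In 180 of the 221 genes kept higher and 133 of the 196 kept lower, the fresh and expanded differences lay within 2-fold of each other. The difference was over 4-fold in both states for 53 genes kept higher and 87 kept lower. When each state was tested alone, 163 of the genes kept higher and 122 of those kept lower passed in both. The 4 libraries of each origin did not overlap for 127 genes kept higher and 100 kept lower, where 3.74% of all genes tested lay wholly higher and 3.61% wholly lower. The kept genes were chosen on these same libraries, so a larger share among them is built in. Expansion itself also changed many of them, since the state term passed for 141 genes kept higher and 125 kept lower.

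Over all genes the origin differences in fresh and in expanded cells had little in common. The origin difference passed in 4261 genes in fresh cells (24.2%) and in 1268 genes in expanded cells (7.21%), and the interaction passed in 2517 genes (14.3%). Counts of kept genes and of interactions in the gene lists below are to be read beside the shares over all genes tested. The fresh and expanded differences had the same sign in 51.8% of genes. Across 12679 genes averaging 50 normalized counts or more, Pearson's r between the fresh and the expanded difference was 0.14, with no libraries in common between them. Genes are not independent replicates, and no test was made. Of the 2655 genes higher in fresh teratoma-derived cells, 50.8% were higher in expanded cells as well, and 59.8% of the 1606 lower genes were lower again. In reverse, 66.9% of the 553 genes higher in expanded teratoma-derived cells were higher in fresh cells, and 48.4% of the 715 lower genes were lower. Among genes that passed in each state alone, 191 were higher in both, 159 were lower in both and 219 went in opposite directions.

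**Figure D1:**
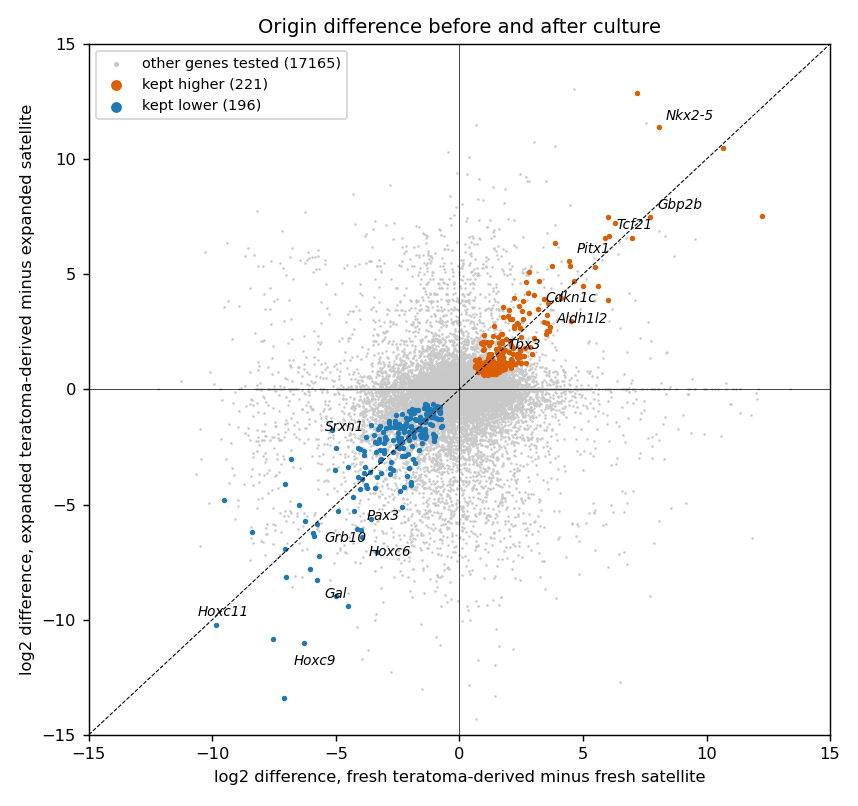
Log2 origin difference of each gene tested in fresh cells (horizontal axis) and in expanded cells (vertical axis), each as teratoma-derived minus satellite. The 221 genes kept higher (orange) lie at the upper right and the 196 kept lower (blue) at the lower left, as the rule requires. The dashed line marks equal differences. The other genes (grey) spread over all quadrants, and 1 gene, not a kept one, lies outside the axes.

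The depth was between 11930881 and 21146554 counts per library, and Rn45s, which encodes ribosomal RNA, made up 7.99% to 21.3% of a library. SF1 stood apart with 20595 genes above 3 counts, against 14485 to 16799 in the other libraries. With SF1 left out, the kept counts fell to 85 genes higher and 60 lower. They were 95 and 94 without TF1, 82 and 70 without TF2, 131 and 144 without TE1, 114 and 124 without TE2, and 97 and 99 without SF2. Of 89 kept genes examined singly, 47 passed with each of the 8 libraries left out in turn. Markers of other cell types were present in the fresh libraries. Summed epithelial markers reached 6529 and 2206 normalized counts in TF1 and TF2, against 273 and 46.8 in SF1 and SF2 and 7.28 to 33.9 in the 4 expanded libraries. Summed blood cell markers were 6627 in TF1 and 551 in TF2, against 503 and 429 in the SF libraries. Among the markers of other tissues, Dcx of neurons was kept higher.

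Pax7, Myf5 and the genes of the 2 positive sort markers, Itga7 and Vcam1, did not pass the test for origin. Cdh15 and Myod1, also myogenic markers, did pass and are given below. Pax7, the factor that marks satellite cells, had 3180 and 5102 normalized counts in TF1 and TF2, 1621 and 1338 in TE1 and TE2, 3696 and 4329 in SF1 and SF2, and 1840 and 1252 in SE1 and SE2. Its log2 origin difference was -0.01 (standard error 0.22, adjusted p = 0.986, edgeR). That of Itga7, the α7-integrin of the sort, was -0.03 (adjusted p = 0.96, edgeR) and that of Myf5, an early myogenic factor, was -0.15 (adjusted p = 0.826, edgeR). Vcam1, the other sort marker, had a difference of -0.74 (adjusted p = 0.184, edgeR), and in expanded cells alone it was lower by origin at -1.23 (adjusted p = 0.0256, edgeR).

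Hox genes of the C cluster were expressed in satellite cells and nearly absent from teratoma-derived cells in both states. Hoxc11 had 0 counts in all 4 teratoma-derived libraries and 127, 99.1, 125 and 173 normalized counts in SF1, SF2, SE1 and SE2. Taking 3 counts per library as the most that a count of 0 allows, it was at least 28.7-fold lower in fresh and 60.5-fold lower in expanded teratoma-derived cells (adjusted p = 0.0109 for origin, edgeR). Hoxc9 had 0, 3.83, 0 and 0 normalized counts in TF1, TF2, TE1 and TE2 and 191, 133, 267 and 240 in the satellite libraries. Hoxc6 had 12.1 and 6.39 in the TF and 0.808 and 2.49 in the TE libraries, against 143 to 160 in the satellite libraries. For each of these genes every satellite library lay above every teratoma-derived one, and the call held with each library left out (highest adjusted p 0.0378, edgeR).

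Hoxc10, the next gene of this cluster, had 765, 1026, 619 and 616 normalized counts in SF1, SF2, SE1 and SE2, 20.2 and 57.5 in TF1 and TF2, and 2.42 and 0 in TE1 and TE2. The origin difference passed (adjusted p = 0.0171, edgeR), and so did the interaction (adjusted p = 0.0161, edgeR), with a lower level in TE than in TF libraries. Hoxc8 showed a like pattern, with at most 7.91 normalized counts in teratoma-derived and at least 61.7 in satellite libraries, and did not pass (adjusted p = 0.0678, edgeR).

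Over the 34 Hox genes tested, 17 were lower in teratoma-derived cells in both states and 1 was higher, while 4 passed for origin, all lower, and 3 were kept. The libraries did not overlap in 10 genes, all lower, where 3.61% of all genes tested lay wholly lower. These 10 were in the A and C clusters, which held 4 of 11 and 6 of 8 genes tested. The A cluster differed chiefly after culture: Hoxa9 had 24.2 and 12.8 normalized counts in the TF libraries beside 40.7 and 22.6 in SF, and 0 in both TE libraries beside 282 and 261 in SE. Its interaction passed, as did that of 9 Hox genes in all. No Hox gene of the B or D cluster passed for origin, and Hoxb2, Hoxb5, Hoxd10, Hoxd12 and Hoxd13 were at 0 in all expanded libraries.

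Pax3 and Lbx1, which act in the limb-bound migratory precursors of muscle, were low in the same cells. Pax3 had 12.2, 9.07, 6.48 and 0 normalized counts in TF1, TF2, TE1 and TE2 and 199, 175, 296 and 155 in SF1, SF2, SE1 and SE2, a log2 difference of -5.05 (standard error 0.86, adjusted p = 0.023, edgeR). The libraries did not overlap, and the call was lost without TF2 or without SF1 (highest adjusted p 0.0599, edgeR). Lbx1 had 36.4 and 63.9 in TF and 3.23 and 2.49 in TE, against 473 to 815 in the satellite libraries. Like Hoxc10 it passed for origin (log2 difference -5.30, adjusted p = 0.024, edgeR) and for the interaction (adjusted p = 0.00169, edgeR).

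**Figure D2:**
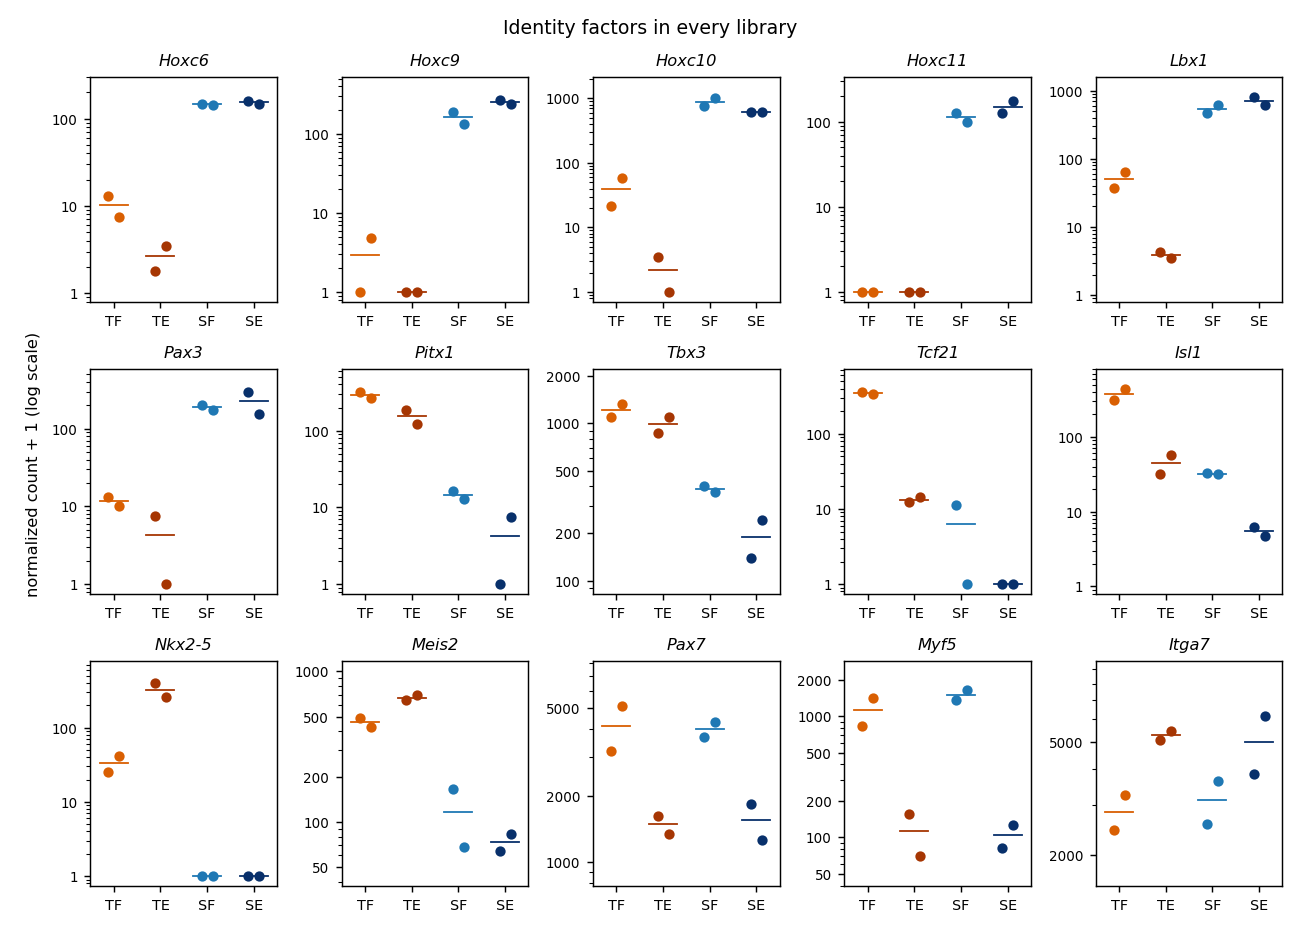
Normalized count plus 1 (vertical axis, log scale) of 15 genes in every library, by group (TF and TE teratoma-derived, SF and SE satellite); points are libraries and horizontal lines are group means. The C cluster Hox genes, Lbx1 and Pax3 are high in all 4 satellite libraries and low in all teratoma-derived ones, Pitx1, Tbx3, Nkx2-5 and Meis2 show the opposite, and Pax7, Myf5 and Itga7 overlap.

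Other regional factors were kept higher in teratoma-derived cells. Of 32 such factors tested, 5 were kept higher (Pitx1, Tbx3, Tcf21, Isl1 and Nkx2-5) and none was kept lower, while the interaction passed in 10. Over all genes tested, 1.26% were kept higher, 1.11% were kept lower, and the interaction passed in 14.3%. Nkx2-5, a factor of the heart and of branchial arch tissue, had 24.2, 40.9, 393 and 258 normalized counts in TF1, TF2, TE1 and TE2 and 0 counts in all satellite libraries. It was at least 9.68-fold higher in fresh and 130-fold higher in expanded cells (adjusted p = 0.0093, edgeR). Its level in teratoma-derived cells was higher after culture than before it. Pitx1, a hindlimb and pituitary factor, had 319, 268, 184 and 121 in the teratoma-derived libraries and 15.1, 11.9, 0 and 6.41 in the satellite libraries, a log2 difference of 4.95 (standard error 0.78, adjusted p = 0.0186, edgeR).

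Tbx3, a T-box factor of limb margins, had 1100, 1328, 866 and 1105 normalized counts in teratoma-derived libraries and 398, 365, 137 and 241 in satellite libraries. Its log2 difference was 2.03 (standard error 0.26, adjusted p = 0.00924, edgeR). Isl1, a factor of heart progenitors, hindlimb and motor neurons, fell in culture in both origins and kept its difference, with 306 and 432 in TF beside 31.4 and 31.3 in SF, and 30.7 and 56.5 in TE beside 5.28 and 3.66 in SE. Tcf21, a factor of head muscle and connective tissue progenitors, had 365 and 333 in TF and 11.3 and 13.3 in TE, against 10.5 in SF1 and 0 in the other satellite libraries. Its expanded difference did not pass alone (adjusted p = 0.0634, edgeR), and the origin call was lost without TF2 (adjusted p = 0.0551, edgeR). The fall of Tcf21 and Isl1 in culture went along with that of the summed fibro-adipogenic markers, which were 31080 and 31320 in TF, 14840 and 25600 in SF and 85.0 to 203 in the expanded libraries; the part of such cells in these levels was not tested. In bulk samples, fewer cells of a type and less RNA per cell cannot be told apart.

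Meis1 and Meis2, homeodomain cofactors of Hox proteins that were singled out after their values were seen, were also kept higher. Meis2 had 490, 428, 642 and 695 normalized counts in teratoma-derived and 165, 66.9, 62.7 and 82.5 in satellite libraries (log2 difference 2.59, standard error 0.40, adjusted p = 0.0168, edgeR). Meis1 had 233 to 556 against 54.9 to 194, and its call was lost without any 1 of the libraries other than SE1 (highest adjusted p 0.0986, edgeR).

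Among 31 imprinted genes tested, 3 were kept higher and 2 were kept lower, and the interaction passed in 15. The shares over all genes tested were 1.26% kept higher, 1.11% kept lower and 14.3% with an interaction that passed. Cdkn1c, a cyclin-dependent kinase inhibitor expressed from the maternal copy, had 5966, 6194, 16590 and 15430 normalized counts in TF1, TF2, TE1 and TE2 and 525, 807, 464 and 2371 in SF1, SF2, SE1 and SE2. Its log2 difference was 3.35 (standard error 0.46, adjusted p = 0.012, edgeR), with no overlap. Grb10, an adaptor that restrains insulin and growth factor signaling, was lower, at 45.8, 89.4, 3.23 and 30.8 against 3471, 3934, 594 and 1337, a log2 difference of -5.80 (standard error 0.60, adjusted p = 0.00402, edgeR). These genes moved in opposite directions and both calls held with each library left out. Peg13, an imprinted noncoding RNA, had at most 61.9 normalized counts in teratoma-derived and at least 107 in satellite libraries (adjusted p = 0.023, edgeR), and its call was lost without SF1 (adjusted p = 0.0599, edgeR). Ndn and Sgce, both read from the paternal copy, were kept higher at log2 differences of 1.92 (adjusted p = 0.00988, edgeR) and 1.50 (adjusted p = 0.0269, edgeR). Sgce lies on chromosome 6, and its call was lost without TF1, TF2, TE1, SF1 or SF2 (highest adjusted p 0.0771, edgeR).

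Igf2, the fetal growth factor, was higher in every teratoma-derived than in any satellite library, at 83960 and 94630 normalized counts in TF and 137600 and 138900 in TE against 1871 and 2018 in SF and 17760 and 51070 in SE. Its origin difference was just inside the threshold (adjusted p = 0.0496, edgeR), and the interaction passed, with a log2 difference of 2.01 in expanded and 5.52 in fresh cells. The call was lost without TF1, TF2, SF1, SF2 or SE1 (highest adjusted p 0.137, edgeR).

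Of 16 myogenic factors tested, 1, Pax3, was kept. Myod1, the determination factor that rises when satellite cells activate, was lower in teratoma-derived cells in both states, with 661 and 966 normalized counts in TF, 6181 and 8351 in SF, 5204 and 5194 in TE and 11080 and 11420 in SE. The fresh log2 difference was -3.16 and the expanded one -1.11, and the interaction passed (adjusted p = 0.00359, edgeR). Its origin call was lost without TF1, TF2, SF1 or SF2 (highest adjusted p 0.126, edgeR). Myh4, a fast myosin heavy chain, was the only 1 of 10 sarcomeric myosin heavy chain genes kept, at 216 to 372 in teratoma-derived and 870 to 2879 in satellite libraries (log2 difference -2.36, adjusted p = 0.0172, edgeR), and was lost without SF1 (adjusted p = 0.0503, edgeR); 30.4% of its 31-base sequences occur in other genes. Dmd, the dystrophin gene, named after its values were seen, was kept lower at 918, 1205, 350 and 543 against 6223, 6560, 586 and 1719. Its expanded difference did not pass alone (adjusted p = 0.0967, edgeR), and the origin call was lost without TF1, TF2, TE1, SF1, SF2 or SE2 (highest adjusted p 0.117, edgeR).

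Surface and signaling genes of satellite cells went both ways. Of 17 satellite cell surface genes, Cdh15, the M-cadherin, was kept higher at a log2 difference of 0.94 (adjusted p = 0.0389, edgeR), and Fgfr1 and Chrdl2 were kept lower. Fgfr1, an FGF receptor, had 7454, 8300, 1567 and 1657 normalized counts in teratoma-derived and 17010, 22120, 2885 and 3608 in satellite libraries, a log2 difference of -1.16 (standard error 0.19, adjusted p = 0.0217, edgeR). The difference was of a like size in both states, about a level that fell in culture in both origins. Fgf13, an intracellular FGF family member, was kept lower as well (log2 difference -3.20, adjusted p = 0.0264, edgeR), making 2 of 22 FGF and ERK feedback genes, none of which was kept higher. Chrdl2, a secreted BMP antagonist, had 210 and 553 in TF beside 3959 and 5136 in SF but at most 12.8 in any expanded library, so its expanded difference rests on few counts. The call of Cdh15 was lost without any 1 library (adjusted p from 0.0521 to 0.137, edgeR). That of Fgfr1 was lost without TF1, TF2, TE1 or TE2 (highest 0.0784), that of Fgf13 without TF2, TE1 or SF1 (highest 0.0648), and that of Chrdl2 without any teratoma-derived or SF library (highest 0.119).

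The galanin gene Gal, which encodes a neuropeptide, was among the genes with the lowest p. It had 124, 174, 1.62 and 0 normalized counts in TF1, TF2, TE1 and TE2 and 6842, 9490, 408 and 174 in SF1, SF2, SE1 and SE2 (adjusted p = 0.00368, edgeR). Within each state the origins stood far apart, while TF2, a fresh library, and SE2, an expanded one, had the same rounded level. Ackr3, an atypical chemokine receptor that takes up Cxcl12, was lower at log2 -2.56 (standard error 0.25), Ampd3, an AMP deaminase, at -2.27 (standard error 0.22), and Pde10a, a cyclic nucleotide phosphodiesterase, at -3.40 (standard error 0.30), with adjusted p-values from 0.00368 to 0.00397 (edgeR). Casr, the calcium-sensing receptor, had 258 and 356 in SF, 18.1 and 16.5 in SE and at most 6.73 in teratoma-derived libraries. Its call was lost without SF1 or SF2 (highest adjusted p 0.062, edgeR). Pcsk1, a prohormone convertase, had 0 counts in every teratoma-derived library and 40.7, 5.39, 388 and 62.3 in the satellite libraries, at least 5.86-fold lower in fresh and 91.6-fold lower in expanded cells. Its call was lost without TF2, TE1, TE2, SF1 or SE1 (highest adjusted p 0.107, edgeR). Neu2, a cytosolic sialidase, had 847 and 1267 in SF and 22.7 and 6.41 in SE, against 15.3 in TF2 and 0 in the other teratoma-derived libraries (adjusted p = 0.012, edgeR). TF2 thus lay above SE2, while within each state the origins did not overlap.

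On the other side, Capn6, a calpain without protease activity that binds microtubules, had 5093, 6375, 2202 and 2721 normalized counts in teratoma-derived and 187, 267, 42.3 and 147 in satellite libraries, a log2 difference of 4.68 (standard error 0.39, adjusted p = 0.00361, edgeR). Ucp2, a mitochondrial carrier, had 2715, 2963, 966 and 912 against 334, 359, 182 and 221 (log2 difference 2.63, standard error 0.22, adjusted p = 0.00361, edgeR). Tril, a Toll-like receptor accessory protein encoded on chromosome 6, had a log2 difference of 3.66 (standard error 0.30, adjusted p = 0.00361, edgeR). In all of these genes each teratoma-derived library lay above each satellite library. Ugt1a6b, a glucuronosyltransferase, had 188 and 186 in TF, 27.1 and 8.79 in TE, 4.66 in SF1 and 0 in the other satellite libraries, and its call was lost without TF1 or TF2 (highest adjusted p 0.0687, edgeR). Dmbt1, a mucosal scavenger receptor, had 2348 and 1996 in TF and 50.9 and 49.9 in TE, against 34.9 in SF1 and at most 0.755 in the others. Its level fell along with the epithelial markers given above, whose part was not tested.

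Single interferon-inducible genes were kept in both directions, while no gene of the interferon response list was kept. Gbp2b, a guanylate-binding GTPase, had 370 and 623 normalized counts in TF and 20.2 and 24.1 in TE, against 3.50 and 1.08 in SF and 0 in both SE libraries (adjusted p = 0.00361, edgeR). Ifi202b, of the DNA-binding Ifi200 family, had 469, 415, 330 and 321 in teratoma-derived and at most 9.31 in satellite libraries (log2 difference 6.63, standard error 0.70, adjusted p = 0.00402, edgeR). In the other direction, Ifi203 and Ifi211 of the same family and Oas1b, of the oligoadenylate synthetase family, all named after their values were seen, were kept lower at log2 differences of -1.82 (adjusted p = 0.00674), -2.48 (adjusted p = 0.0284) and -2.94 (adjusted p = 0.0308, edgeR). No gene of 25 interferon response genes or of 21 MHC class I genes tested was kept or passed for origin, the former list with a median log2 difference of 0.87 and the latter of -0.44, beside 0.02 over all genes tested.

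Hprt, a purine salvage enzyme on the X chromosome, was singled out after its values were seen. It had 55.2, 0, 2.42 and 0 normalized counts in TF1, TF2, TE1 and TE2 and 591, 666, 994 and 816 in SF1, SF2, SE1 and SE2 (adjusted p = 0.0448, edgeR). The call was lost without TF2, TE1, TE2, SF1, SF2 or SE2 (highest adjusted p 0.0794, edgeR). As background, a common derivative of the E14 stem cell line carries a deletion in this gene; the sources used here do not say which derivative was used, and its part in this difference was not tested.

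Few collagen genes kept an origin difference. Of 43 collagen genes tested, Col1a2, Col6a6 and Col8a2 were kept higher and none was kept lower, while the interaction passed in 26. Among all genes tested, 1.26% were kept higher, 1.11% were kept lower, and the interaction passed in 14.3%. The median log2 difference of the collagen list was 2.42 in fresh and -0.41 in expanded cells, and 1.01 in the additive fit. Some fibro-adipogenic markers were also higher in fresh teratoma-derived cells. Pdgfra had 4313 and 4485 normalized counts in TF beside 1314 and 1999 in SF and at most 42.3 in any expanded library. Lum had 4908 and 4962 beside 604 and 1539 and at most 6.46. Dcn, Dpt and Ly6a of the same list overlapped between the origins in fresh cells. Dcn had 14020 and 12700 in TF beside 8914 and 15230 in SF. The part of cells with such markers in the collagen values was not tested. Col1a2, a chain of type I collagen encoded on chromosome 6, had 224000 and 231600 normalized counts in TF beside 13330 and 25750 in SF, and 20450 and 20440 in TE beside 1535 and 4079 in SE. Its log2 difference was 3.20 (standard error 0.41, adjusted p = 0.00792, edgeR). Col6a6, a chain of type VI collagen, had 5490 and 7567 in TF and 394 and 581 in SF, but at most 5.82 in any expanded library. Of 47 Wnt genes tested, Axin2, a target and inhibitor of the pathway, and Tcf7l1, a repressor of its targets, were kept higher, at log2 differences of 1.87 (adjusted p = 0.0166, edgeR) and 1.08 (adjusted p = 0.023, edgeR). Axin2 was lost without TF1 (adjusted p = 0.0573, edgeR), and Tcf7l1, on chromosome 6, without any teratoma-derived or SF library (highest 0.0771).

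Enzymes of serine and one-carbon metabolism were kept higher in teratoma-derived cells. They belong to a list of 32 genes of the amino acid stress response that was written after the values were seen, and its count describes these samples only. Of the 32 genes tested, 13 were kept higher and none lower, 19 were higher in both states and none was lower in both, the interaction passed in 15, and the median log2 difference was 1.23, with 0.78 in fresh and 1.76 in expanded cells. Of all genes tested, 1.26% were kept higher, and the interaction passed in 14.3%. Phgdh, which takes the first step of serine synthesis, had 566 and 713 normalized counts in TF beside 149 and 144 in SF, and 4991 and 5141 in TE beside 2224 and 2053 in SE (log2 difference 1.68, standard error 0.22, adjusted p = 0.01, edgeR). Of its 31-base sequences, 24.8% occur in other genes, so that its level is less certain. Psat1 and Psph, the next enzymes, had differences of 1.87 (standard error 0.26) and 1.99 (standard error 0.29). All of them rose in culture in both origins and were higher in teratoma-derived cells at each state.

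Aldh1l2, a mitochondrial enzyme of folate metabolism, had the largest difference of these genes among those kept, 3.06 (standard error 0.37, adjusted p = 0.00674, edgeR), with 252 and 692 in TF beside 39.6 and 36.6 in SF and 4812 and 4770 in TE beside 685 and 944 in SE. Pck2, the mitochondrial phosphoenolpyruvate carboxykinase, differed by 1.57 (standard error 0.22), Slc1a4, a neutral amino acid transporter, by 1.82 (standard error 0.19), and Bcat1, a branched-chain aminotransferase on chromosome 6, by 2.55 (standard error 0.46). These calls, with those of Phgdh, Psat1 and Psph, held with each library left out. Shmt2, Mthfd2, Aldh18a1, Stc2, Nupr1 and Eif4ebp1 were also kept higher, at log2 differences of 0.89 to 2.21, and each lost its call without at least 1 library (highest adjusted p 0.108, edgeR). Stc2 and Nupr1 lost theirs without SF1, while Eif4ebp1 lost its call without any 1 library.

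Several genes on the same list did not share this pattern. Atf4, Atf3, Ddit3 and Chac1 had fresh log2 differences of -0.66, -0.75, -0.33 and -0.53 and expanded ones of 1.43, 2.72, 2.17 and 2.75, and the interaction passed in each. Of 20 cytosolic aminoacyl-tRNA synthetases, a list also written after the values were seen, Gars, Sars, Lars and Mars were kept higher, at log2 differences of 1.59, 1.32, 0.93 and 0.79, and none was kept lower. Gars lies on chromosome 6 and held its call with each library left out. Sars was lost without TF1, TF2, SF1 or SF2 (highest adjusted p 0.066, edgeR), and Lars and Mars without any 1 library (adjusted p from 0.0533 to 0.171, edgeR).

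**Figure D3:**
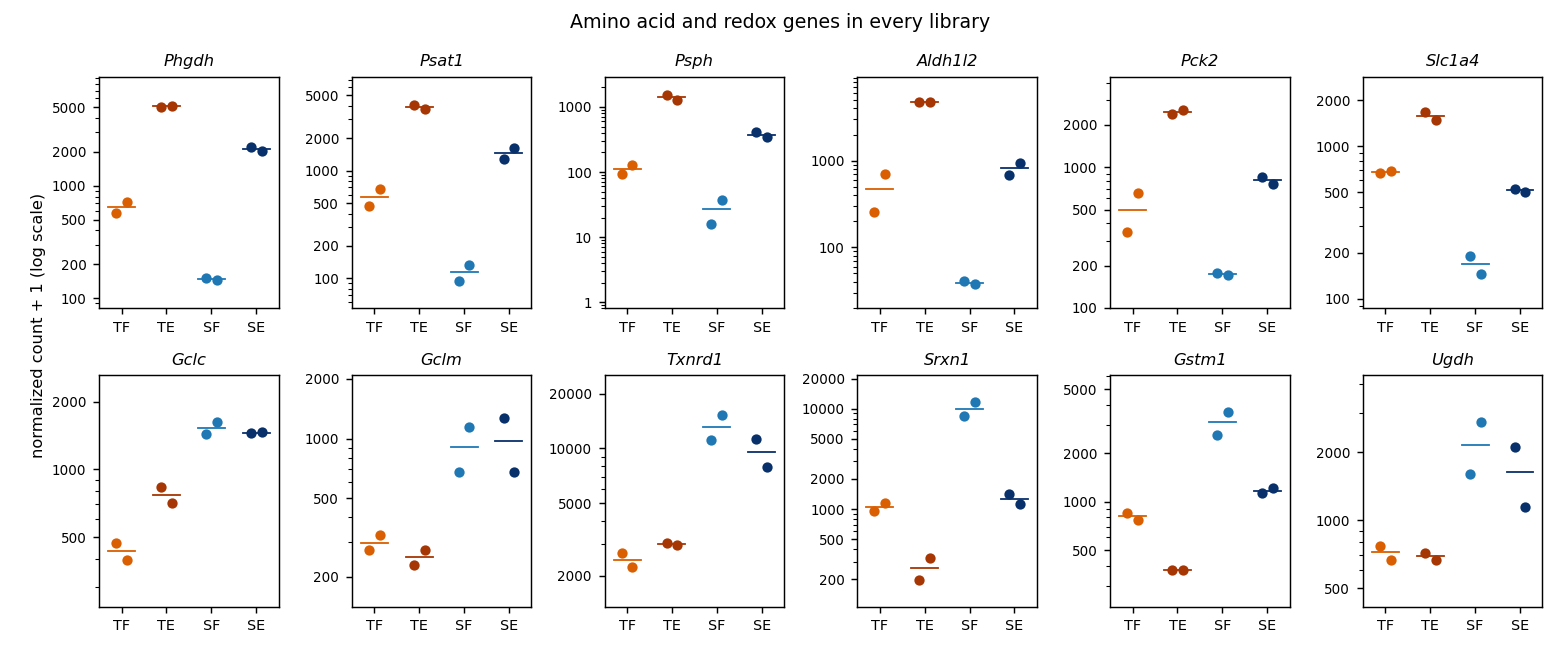
Normalized count plus 1 (vertical axis, log scale) of 6 amino acid genes (upper row) and 6 redox genes (lower row) in every library, by group; points are libraries and horizontal lines are group means. In each upper panel both teratoma-derived groups lie above the satellite group of their state, and in each lower panel they lie below it. All genes shown were kept, so the rule requires this pattern. Some other members of the amino acid stress and NRF2 target lists did not share it.

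Several genes of glutathione and thioredoxin metabolism were kept lower. Of 24 known target genes of the oxidative stress regulator NRF2, again a list written after the values were seen, 7 were kept lower and none higher, 12 were lower in both states and 1 was higher in both, the interaction passed in 11, and the median log2 difference was -0.89. The list's median was -0.30 in fresh and -1.12 in expanded cells. Of all genes tested, 1.11% were kept lower, and the interaction passed in 14.3%. Srxn1, the sulfiredoxin, had 964 and 1141 normalized counts in TF beside 8380 and 11670 in SF, and 195 and 326 in TE beside 1414 and 1136 in SE (log2 difference -2.78, standard error 0.29, adjusted p = 0.00402, edgeR). Txnrd1, the cytosolic thioredoxin reductase, had 2663, 2231, 3022 and 2953 in teratoma-derived and 11110, 15210, 11270 and 7857 in satellite libraries (log2 difference -2.05, standard error 0.25, adjusted p = 0.00607, edgeR). Its level changed little in culture in either origin, and the libraries did not overlap.

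Gclc and Gclm, the subunits of the enzyme that makes the glutathione precursor, differed by -1.37 (standard error 0.23) and -1.79 (standard error 0.28), and Gstm1, a glutathione transferase, by -1.79 (standard error 0.18); 15.4% of the 31-base sequences of Gstm1 occur in other genes. Gclc was lost without TF1, TF2 or SF1 (highest adjusted p 0.0749, edgeR) and Gclm without SF2 (adjusted p = 0.0511, edgeR), while Srxn1, Txnrd1 and Gstm1 held with each library left out. Ugdh and Aox1 were kept lower at -1.41 and -1.12, and their calls were lost without any 1 library, except that Ugdh passed without SE2 (highest adjusted p 0.0986 for Ugdh, and at least 0.0618 for Aox1, edgeR). Other members went the other way or differed between states: Slc7a11, a cystine transporter, was higher at 1.35 (adjusted p = 0.0546, edgeR), and Nqo1 had log2 differences of 0.15 in fresh and -2.25 in expanded cells. In a wider list of 31 glutathione transferase and aldehyde dehydrogenase genes, Aldh1a2 and Aldh1l2 were kept higher and Gstm1, Aldh2 and Aldh3a1 lower. The Aldh2 call was lost without any 1 library (adjusted p from 0.0665 to 0.158, edgeR) and that of Aldh3a1 without TF2 (adjusted p = 0.0503, edgeR). Aldh1a2, the main retinoic acid synthesizing enzyme of the embryo, had 422 and 327 in TF beside 36.1 and 33.4 in SF, and 4.85 and 24.1 in TE beside 0 and 1.83 in SE; its call was lost without TF1, TF2, TE2, SF1 or SF2 (highest adjusted p 0.104, edgeR).

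Several of the largest kept differences belonged to pairs of a gene and a near-identical copy elsewhere in the genome, with counts for the one in teratoma-derived and for the other in satellite cells. Of 40 kept genes that differed more than 16-fold in both states, 22.5% shared at least 50% of their 31-base sequences with a gene at another place, as did 1.93% of all genes tested. Among 11 pairs with a kept member, the members of 10 differed in opposite directions. In these 10 the copy's share of the pair did not overlap between the origins. The pairs were chosen for a member kept on these same libraries, so some separation of the shares is built in. The shares of pairs without a kept member were not computed. When the counts of the members were added, 3 of the 11 pairs passed for origin, namely Ndufs5 with BC002163, Hmga1 with Hmga1b, and Gm8765 with Gm906.

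Coding sequences from the GENCODE M21 transcripts (GRCm38) show how little separates the members. The gene is given first and its copy second, 5′ to 3′ on the coding strand, over the same 90 bases, with the differing bases in capitals. Ndufs5 lies at chr4:123712710-123718202 on the minus strand and BC002163, a processed pseudogene, at chr16:42955631-42955949 on the plus strand.
Ndufs5: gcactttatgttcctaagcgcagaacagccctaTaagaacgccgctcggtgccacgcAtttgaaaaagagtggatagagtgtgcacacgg
BC002163: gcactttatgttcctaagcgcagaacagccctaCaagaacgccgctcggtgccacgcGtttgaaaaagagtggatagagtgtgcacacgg
Ahcy lies at chr2:155059310-155074497 and Gm4737, annotated as coding, at chr16:46152985-46155077, both on the minus strand.
Ahcy: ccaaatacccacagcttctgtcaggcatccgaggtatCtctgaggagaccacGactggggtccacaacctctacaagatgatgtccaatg
Gm4737: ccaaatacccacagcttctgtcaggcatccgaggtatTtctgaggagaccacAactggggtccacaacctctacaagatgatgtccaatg
Over the aligned coding sequence, Ndufs5 and BC002163 differ at 2 of 319 bases and Ahcy and Gm4737 at 4 of 1299. Hmga1 and Hmga1b are identical over the 324 coding bases of Hmga1, and reads within it cannot separate them.

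Ndufs5, a subunit of respiratory complex I, had 0, 1.65, 19.1 and 2.34 normalized counts in TF1, TF2, TE1 and TE2 and 260, 267, 705 and 913 in the satellite libraries, while BC002163 had 553, 626, 1253 and 1456 against 0, 0, 13.7 and 0. The copy thus took 98.5% to 100% of the pair in teratoma-derived and 0% to 1.90% in satellite libraries. The pair as a whole was higher in teratoma-derived cells by a log2 of 0.95 (standard error 0.19, adjusted p = 0.0393, edgeR). For Ahcy, the S-adenosylhomocysteine hydrolase of the methyl cycle, the copy Gm4737 took 94.5% to 100% against 8.80% to 28.9%, and the pair did not differ by origin (log2 -0.12, standard error 0.20, adjusted p = 0.761, edgeR). For the ribosomal protein gene Rpl30, Gm12191 took 68.6% to 75.1% against 0.406% to 2.63%, with a summed difference of 0.15 (standard error 0.16, adjusted p = 0.632, edgeR).

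Hmga1, a chromatin protein of fetal and proliferating cells, was lower and Hmga1b higher at log2 differences of -3.58 and 5.41. Their sum was 871, 399, 1662 and 1531 normalized counts in teratoma-derived and 1271, 1922, 10100 and 4031 in satellite libraries, a log2 difference of -1.74 (standard error 0.38, adjusted p = 0.0484, edgeR). In expanded cells the sum was lower by -2.15. The remaining pairs of opposite direction were Atp6v0c with Atp6v0c-ps2, Btg3 with Gm7334, Eif3j1 with Eif3j2, Eno1 with Eno1b, Tdg with Gm9855 and Rnaset2b with Rnaset2a, and none of their sums passed (log2 from -0.50 to 0.51). The sum of Eno1 and Eno1b differed by 1.83 in fresh and -1.10 in expanded cells, and that of Eif3j1 and Eif3j2 by -1.31 and 0.30. The counts of Gm7334, at 0 in every satellite library and 82.8 to 264 in teratoma-derived ones, and those of Eif3j1, at 0 in TF1, TE1 and TE2, 40.2 in TF2 and 1308 to 3281 in satellite libraries, are to be read with their pairs, whose sums differed by -0.29 and -0.50. Whether bases that differ between the genomes of the stem cell line and of the satellite cell donors decide which copy is counted was not tested.

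**Figure D4:**
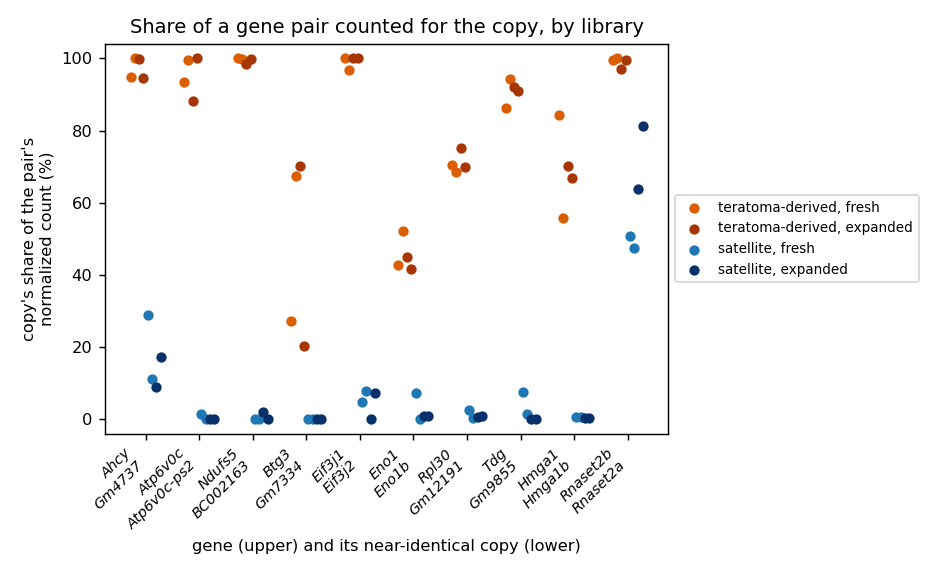
Share of a gene pair's normalized count that was counted for the copy (vertical axis, percent) in each of the 8 libraries for 10 pairs (horizontal axis, gene above copy). In each pair the 4 teratoma-derived libraries (orange and brown) lie above the 4 satellite libraries (light and dark blue), without overlap. The pairs were chosen for a member kept on these same libraries, so some separation is built in.

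Chromosome 6 held many of the genes kept higher. Of the 221 genes kept higher, 66 lie on it, which is 29.9% of them and 7.18% of its 919 genes tested, beside 1.26% of all genes tested. It held 3 of the 196 genes kept lower. The 66 genes spread along the chromosome from 4.51 to 148 Mb (GRCm38), the median of their origin differences was 2.38-fold, and 56 of them differed by a like amount, within 2-fold, in both states. The 155 genes kept higher on other chromosomes had a median of 3.18-fold.

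The difference was not limited to the genes called. Over 638 genes of chromosome 6 that averaged 50 normalized counts or more, the median log2 difference was 0.75 in fresh and 0.53 in expanded cells, while the medians of the other autosomes lay between 0.07 and 0.39 in fresh and between -0.07 and 0.04 in expanded cells. By library, relative to the mean of the satellite libraries of the same state and on the log2 scale after adding 1, the median of chromosome 6 was 0.74 in TF1, 0.70 in TF2, 0.51 in TE1 and 0.53 in TE2 and between -0.06 and 0.06 in the satellite libraries. In the same libraries no other autosome was above 0.34 in TF or above 0.04 in TE. Without the genes of chromosome 6, 139 genes were kept higher and 149 lower. Among the kept genes described above, Col1a2, Tcf7l1, Sgce, Bcat1, Gars, Mthfd2, Tril and the copy Atp6v0c-ps2 are on this chromosome. Of these, Col1a2, Tril, Bcat1 and Atp6v0c-ps2 differed by far more than its median, and Atp6v0c-ps2 is to be read with its pair.

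**Figure D5:**
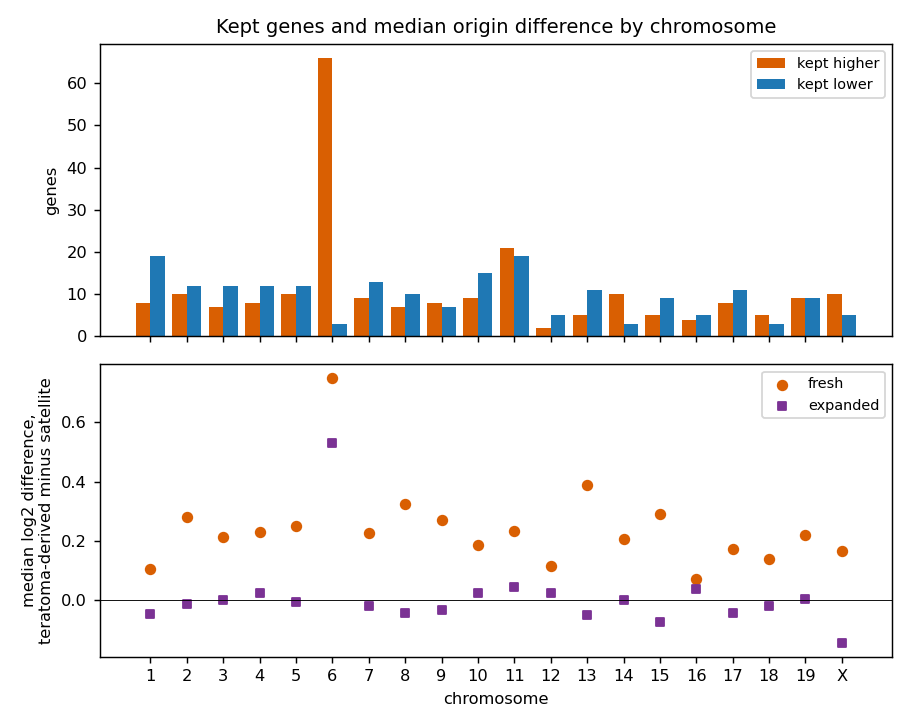
Number of genes kept higher and kept lower on each chromosome (upper panel) and median log2 origin difference of genes averaging 50 normalized counts or more (lower panel), in fresh cells (circles) and expanded cells (squares). Chromosome 6 holds 66 genes kept higher and has the highest median in both states, 0.75 and 0.53.

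Other groups of genes did not keep an origin difference. None of the genes tested of the nuclear factor I family (4), the IGF axis (13), the Notch pathway (20) or the pluripotency and germline list (13) was kept, while Igf2 passed for origin with an interaction. Of 12 fetal program genes Hmga1 was kept lower, and in the BMP and TGF-beta list, Chrdl2 was kept and the interaction passed in 22 of 47 genes. At the threshold, Igf2 and Shisal1 lay just inside with adjusted p-values of 0.0496, and Dbx1 and Speg just outside with 0.05001 and 0.0502 (edgeR). Dbx1, a homeodomain factor of the spinal cord, had 382 and 505 normalized counts in TF beside 22.1 and 38.8 in SF and 0 in all expanded libraries, so that its value comes from fresh cells only.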

How the data were processed

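RNA of 8 libraries of mouse myogenic cells was read in pairs after preparation with a stranded total RNA kit for low input. Estimated counts of 24980 gene symbols, without normalization, were deposited by the authors in 1 table. The submitters' processing notes name CASAVA, kallisto 0.44.0 and the builds GRCm38 and mm10, while the transcript annotation and strand setting are not given in the sources used here. Between 74.4% and 84.4% of a library's values were whole, and all were rounded. kallisto assigns reads to transcripts by shared sequences of a fixed length, so reads of near-identical genes can be split or moved between them. Since strand use in counting is not given, antisense and overlapping genes are uncertain.

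Groups were taken from the labels. Genes were filtered with filterByExpr (17582 left), scaled by TMM and tested with edgeR 4.0.16 (R 4.3.3) in quasi-likelihood fits. An additive fit of origin and state gave the origin difference, and a fit of the 4 groups gave the fresh, expanded and interaction terms. Calls needed an adjusted p under 0.05 (Benjamini-Hochberg) and a difference over 25%, the study's thresholds. Log2 differences of genes with groups at 0 depend on the prior count of 0.125, and lower bounds used 3 counts per library (2.26 to 4.04 normalized counts), which cover counting error only. The common dispersion was 0.368 in the additive fit and 0.233 in the fit of 4 groups. The fits were tested on simulated counts.

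The members and gene lists were chosen with earlier results of these data known. The named genes were, among those kept, the 12 per direction with the largest smaller difference averaging 50 normalized counts or more, genes absent in 1 origin, list members kept or with an interaction, Pax7, Pax3, Myf5, Myod1, Itga7, Vcam1, Spry1, and the genes next to the threshold, together with the 5 called per direction with the lowest p; Hprt, Dmd, Meis1, Meis2, the pairs of copies and the 3 lists marked so were added after the values were seen. Genes were placed by symbol with GENCODE M21 (99.8% matched). Copies were found by 31-base sequences shared between GENCODE M21 transcripts of genes that do not overlap. Alternatives were median-ratio size factors, no filter, DESeq2 1.42.0, a replicate block, glmTreat, Rn45s left out, the mean of both states in the fit of 4 groups, and each library left out; summed copies and no chromosome 6 genes were added after seeing the data. A few items are not reported here.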

Additional observations from a re-analysis of the deposited data

Results flagged for a closer look

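In 13 of the named genes the origin difference in expanded cells differed from that in fresh cells, as tested by the interaction term in edgeR. Some genes were named because their interaction passed, and kept genes only where it did not, so this count follows from the choice of genes. Over all genes tested, the interaction passed in 14.3%. The expanded minus the fresh log2 difference was -3.52 for Igf2 (adjusted p = 0.0046), -1.01 for Peg10 (adjusted p = 0.0299) and 2.28 for Airn (adjusted p = 0.0215), all imprinted genes. For Myod1 it was 2.05 (adjusted p = 0.00359), and for Sdc4, a satellite cell heparan sulfate proteoglycan, 1.63 (adjusted p = 0.0151), both lower in teratoma-derived cells in each state and nearer to satellite cells after culture. Id3, a BMP target, moved away by -1.50 (adjusted p = 0.0359). Lbx1 moved away by -4.47 (adjusted p = 0.00169), and Hoxc10, at 0 in TE2, had an adjusted p of 0.0161. For Spry1, a feedback inhibitor of ERK signaling, the interaction was 2.25 (adjusted p = 0.0212), with a log2 difference of -0.21 in fresh and 2.05 in expanded cells. Ddx3y, on the Y chromosome, had 949 and 996 normalized counts in TF beside 3474 and 4870 in SF, and 8.88 and 32.4 in TE beside 952 and 1140 in SE, an interaction of -3.56 (adjusted p = 0.00303). Plagl1, an imprinted zinc finger gene singled out after its values were seen, had 2472 and 1728 normalized counts in TF beside 1578 and 1340 in SF, and 25.8 and 23.3 in TE beside 7383 and 3864 in SE, an interaction of -8.36 (adjusted p = 3.57e-05). Of the pairs of copies, Eno1 had an interaction of -2.86 (adjusted p = 0.000514), and Gm9855, at 0 in both SE libraries, had an adjusted p of 0.0059.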

How the results depend on the processing

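No named gene that passed for origin changed direction under any alternative; of those that did not pass, Pax7, Itga7, Myf5, Eno1 and Xist changed sign in at least 1 fit with a library left out, without passing. The counts below are of genes higher and lower by origin, then kept higher and kept lower. They were 1153, 1109, 472 and 601 without the filter on low counts, 851, 1357, 615 and 1082 with DESeq2, and 133, 141, 122 and 127 when tested against the fold threshold itself (glmTreat). The mean of both states in the fit of 4 groups gave 1949 higher and 1441 lower by origin, since that fit does not count the interaction as spread. Without the genes of chromosome 6, chosen after seeing the data, 153 were higher and 139 kept higher. Genes differing in expanded cells numbered 2260 without the filter and 2163 with DESeq2. With 1 library left out, the ranges were 89 to 248 and 67 to 250 by origin, 82 to 191 and 60 to 199 kept, 2639 to 5072 in fresh cells, 653 to 1698 in expanded cells and 1467 to 2996 for the interaction. Of the 417 kept genes, 365 remained kept with median-ratio size factors, 395 with DESeq2, 404 with copies summed and 129 without SF1. The causes of these changes, other than that given, were not tested.

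The deviations of replicate 1 from the group mean correlated at -0.02 to 0.07 between groups. With 2 libraries per group, this cannot show whether libraries of the same number came from the same cells. With the replicate block, the counts were 112, 109, 104 and 99, and 26 named genes lost their call. Depth limits what can be said of genes near 0, whose values cover counting error only, and with 2 libraries per group modest differences may have been missed.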
